A study of Mus musculus with 6 samples.

Results

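The genes of Wnt signalling at the cell surface were followed in injured mouse femoral arteries: Wnt ligands, their receptors, the secreted antagonists, the R-spondins with their LGR receptors, and the intracellular genes Ctnnb1 and Axin2. Members were chosen by gene symbol alone, which gave 51 of the 18476 genes in the deposited table, and 39 of the 51 passed the low-count filter and were tested. All arteries came from wild-type C57BL/6 mice and were taken 3 days after damage with a wire. They had received saline or vasostatin-2, a peptide fragment of chromogranin A, applied around the outside of the vessel. Each group had 3 libraries, given as biological replicates of 1 batch. The sources used here give neither the age nor the sex of the mice.

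Wnt proteins are secreted lipid-modified ligands that bind Frizzled receptors. Together with the co-receptors LRP5 and LRP6 they stop the breakdown of beta-catenin, which then acts with TCF and LEF factors on target genes. Other Wnt ligands, with the receptors ROR1 and ROR2, act without beta-catenin on cell polarity and movement. Antagonists of the SFRP family bind the ligands, and some DKK proteins block LRP5 and LRP6. R-spondins with LGR4, LGR5 or LGR6 keep Frizzled receptors at the cell surface. In injured arteries the pathway has been studied for its part in smooth muscle growth and migration.

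Of the secreted antagonists, Sfrp2 and Sfrp4, both abundant, were 1.45-fold and 1.75-fold higher with vasostatin-2, and Dkk2 was 1.35-fold higher. The rare Frzb was 2.15-fold lower, with overlapping groups, and 4 of the 7 tested antagonists had a fitted value below 0. The ligands Wnt9b and Wnt5a were 2.15-fold and 1.29-fold higher, Wnt9b with overlapping groups. Lgr5, an R-spondin receptor, was 2.60-fold lower, and it was the member with the smallest p. No Frizzled, LRP or ROR receptor reached an unadjusted p of 0.05, nor did Ctnnb1. After Benjamini-Hochberg adjustment over all 14557 genes, edgeR's quasi-likelihood test called no member and 0% of all genes at 0.05. Without adjustment, 1040 genes had a p under 0.05. DESeq2 with the same adjustment called 2 members, Lgr5 (adjusted p = 0.00965) and Sfrp4 (adjusted p = 0.0450), beside 0.809% of the genes with a defined value.

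At an unadjusted p of 0.05, edgeR gave 8 of the 39 tested members, where 7.14% of all tested genes reached it. Of these, 6 were higher with vasostatin-2 (Sfrp2, Sfrp4, Dkk2, Lgr4, Wnt5a and Wnt9b), against 3.29% of all genes. Lgr5 and Frzb were lower, against 3.85% of all genes. The groups did not overlap in CPM (counts scaled to library size) in 7 members, 17.9% of those tested, where the share over all genes was 12.7%. They were higher with vasostatin-2 in 6 (Sfrp2, Sfrp4, Dkk2, Wnt5a, Lgr4 and Lrp5), against 6.01% of all genes, and lower in Lgr5, against 6.72%. The median log2 fold change over the 39 members was 0.02, and over all genes it was −0.001. A fitted value above 0 was found for 22 of the 39, against 49.8% of all genes.

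**Figure D1:**
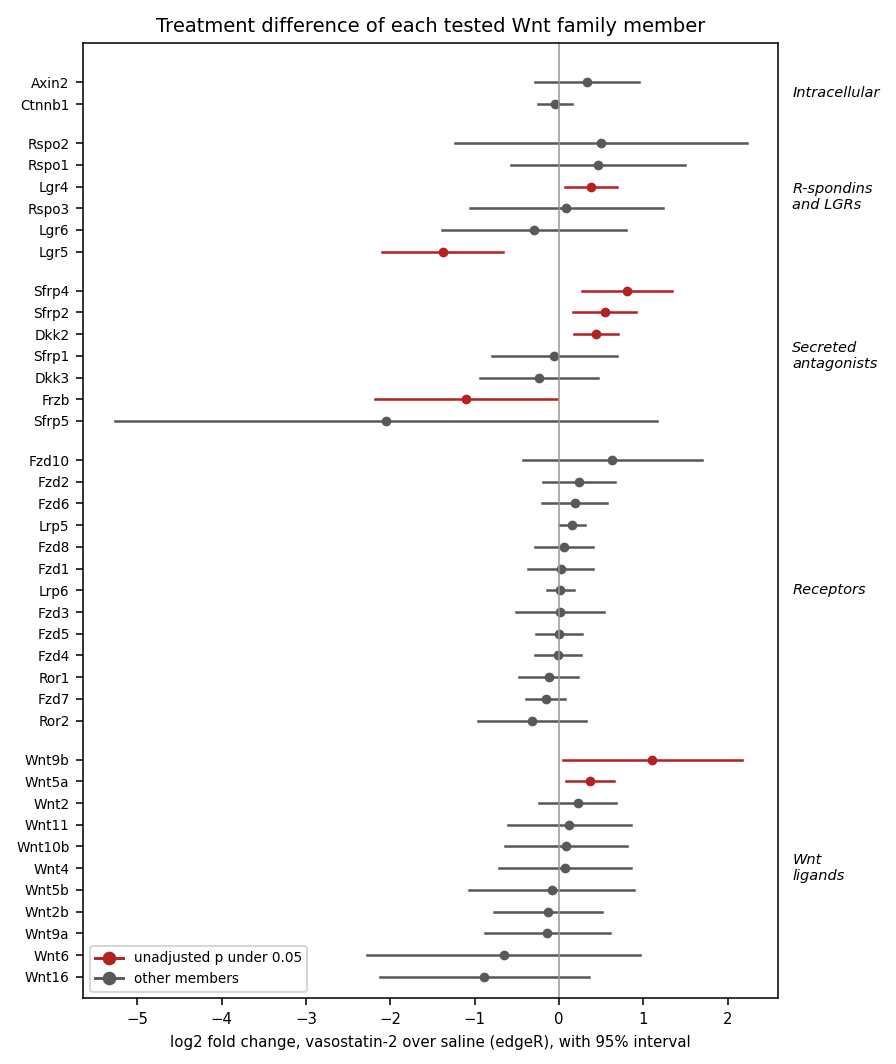
Fitted log2 fold change (horizontal axis) of the 39 tested members by role, vasostatin-2 over saline, each with its 95% interval from edgeR; red marks an unadjusted p under 0.05. Sfrp4, Sfrp2 and Dkk2 lie to the right and Lgr5 to the left, while most receptors sit close to 0.

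Total estimated counts ran from 19333730 to 20105995 per library, so depth was nearly equal and 3 counts stood for 0.149 to 0.155 CPM. The labels name vascular smooth muscle cells, but the RNA was isolated from the injured artery, with no cell sorting described. All 12 contractile smooth muscle markers were detected, with a summed level of 850 to 1889 TPM (transcript abundance scaled to length and to the library's sum) in saline and 904 to 2249 TPM with vasostatin-2. The 10 monocyte and macrophage markers summed to 11582 to 16233 TPM in saline and 14561 to 15284 TPM with vasostatin-2. Of these, Adgre1 (log2 fold change 0.50), C1qa, C1qb, C1qc and Fcgr1 (0.27) were higher with vasostatin-2 without overlap in CPM. Csf1r, Cd68, Lyz2, Mrc1 and Cd14 overlapped. Over all tested genes, 6.01% were higher without overlap. In such bulk samples fewer cells of a type and less RNA per cell cannot be told apart. Single libraries stood apart in other tissues: 10 Schwann cell markers summed to 941 TPM in saline replicate 3 and to 169 to 270 TPM elsewhere. The 12 skeletal muscle markers summed to 1607 TPM in vasostatin-2 replicate 3 and to 104 to 180 TPM elsewhere. The 7 red cell markers found summed to 43412 TPM in saline replicate 2, against 7017 and 9501 TPM in the other saline libraries and 1150 to 8711 TPM with vasostatin-2.

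The secreted antagonists made up most of the family's transcripts. Their summed level was 1039, 662 and 1118 TPM in saline replicates 1, 2 and 3, and 1386, 1368 and 1260 TPM with vasostatin-2. Sfrp1, Sfrp2 and Sfrp4 alone held 91.3% to 97.0% of that sum in every library. The 18 Wnt ligands together came to 54.5 ± 17.6 TPM in saline and 56.1 ± 9.72 TPM with vasostatin-2 (SD, n = 3 each).

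**Figure D2:**
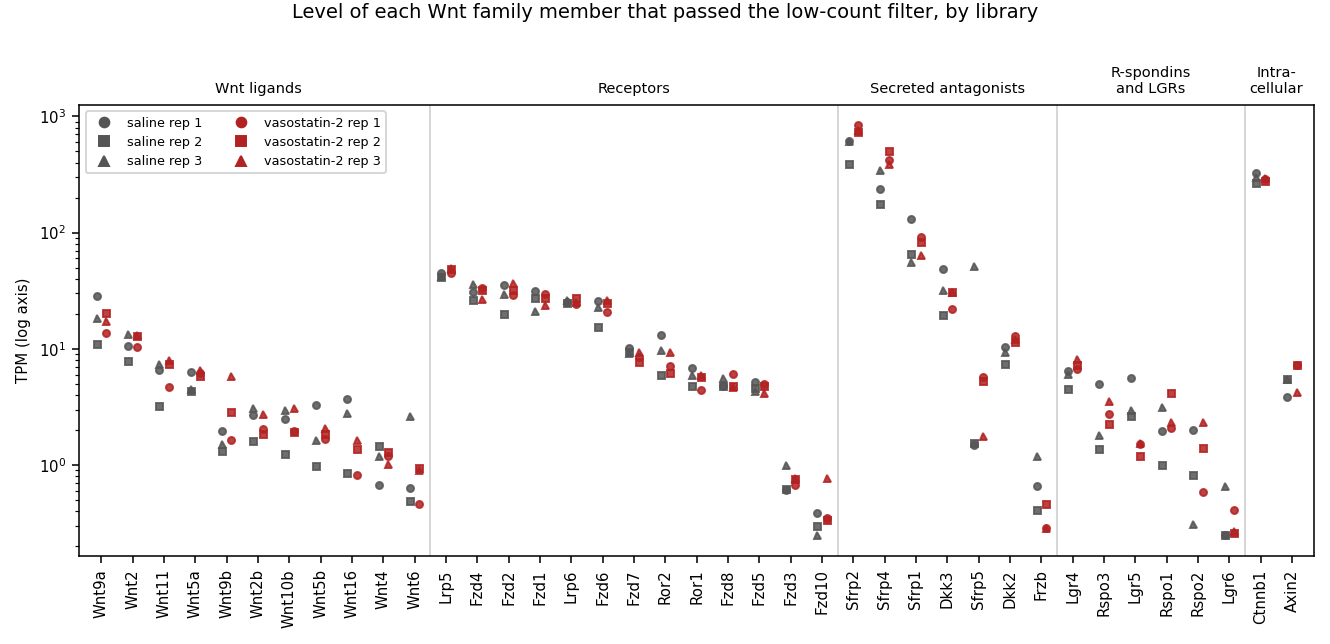
TPM (log axis) of each tested member in each of the 6 libraries, grouped by role and ordered by mean level; grey is saline, red is vasostatin-2, and the symbol gives the replicate. Sfrp2 and Sfrp4 lie highest together with Ctnnb1, and Sfrp5 has a single saline library far above the others.

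Sfrp2, a secreted Wnt-binding protein made by fibroblasts, was at 613, 392 and 620 TPM in the saline libraries and at 836, 737 and 761 TPM with vasostatin-2. The treated libraries were all above the saline ones, and saline replicate 2 was the lowest. The group means were 542 ± 130 and 778 ± 51.3 TPM. Fitted to counts, the log2 fold change was 0.54 (SE 0.16, edgeR adjusted p = 0.601). Without saline replicate 2 it was 0.38. DESeq2 gave Sfrp2 an adjusted p of 0.104 with all libraries. It called Sfrp2 in 1 of the 6 fits with 1 library left out (adjusted p = 0.0045). Sfrp2 lies on chromosome 3 from 83765750 to 83789957 (GRCm38.p6). Its exons share 347 bases with an opposite-strand gene of GENCODE, Gm26771, and whether the libraries kept strand is not stated, so reads of the pair cannot be told apart.

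Sfrp4, a second Wnt-binding antagonist, was at 235, 175 and 345 TPM in saline and at 418, 500 and 389 TPM with vasostatin-2. These groups did not overlap either, although saline replicate 3 came close to the lowest treated library. Its log2 fold change was 0.81 (SE 0.22, edgeR adjusted p = 0.585), with a 95% interval from 0.27 to 1.34. DESeq2 no longer called Sfrp4 when saline replicate 1 was left out (adjusted p = 0.210). The same held on leaving out any treated library, with adjusted p of 0.145, 0.729 and 0.138 for replicates 1, 2 and 3. Of the 6 DESeq2 fits with 1 library left out, 2 called Sfrp4, with a smallest adjusted p of 3.4e-07. In the authors' deposited table its q-value was 0.0543. Sfrp4 lies on chromosome 13 from 19623175 to 19632825. Of the 10 adventitial fibroblast markers, 3 were also higher with vasostatin-2 without overlap in CPM, Lum, Dcn and Pdgfra, against 6.01% of all genes. The others overlapped, as described with the fibroblast markers.

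Their relative Sfrp1 did not share the difference. It was at 130.0, 65.1 and 56.0 TPM in saline and at 91.2, 82.6 and 64.6 TPM with vasostatin-2. The saline values enclosed the treated ones, with a log2 fold change of −0.06 and a 95% interval from −0.80 to 0.68. Leaving out saline replicate 1 turned that value to 0.38, and leaving out the treated replicate 3 turned it to 0.07.

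Dkk2, which binds LRP5 and LRP6, was at 10.3, 7.48 and 9.42 TPM in saline and at 12.9, 11.4 and 12.2 TPM with vasostatin-2. The groups did not overlap, and the log2 fold change was 0.43 (SE 0.11, edgeR adjusted p = 0.548). Dkk3, a divergent family member, ran from 19.4 to 48.2 TPM in saline and from 22.2 to 30.7 TPM with vasostatin-2, with a log2 fold change of −0.24 (SE 0.29). Dkk1 and Dkk4 had at most 1.06 counts in any library.

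Frzb, also called Sfrp3, was a rare transcript, with 18, 12 and 33 counts in saline and 8, 13 and 8 counts with vasostatin-2. The groups overlapped through saline replicate 2 and vasostatin-2 replicate 2. The log2 fold change was −1.10 (SE 0.46, edgeR adjusted p = 0.693), and −0.63 without saline replicate 3, the library rich in Schwann cell markers.

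**Figure D3:**
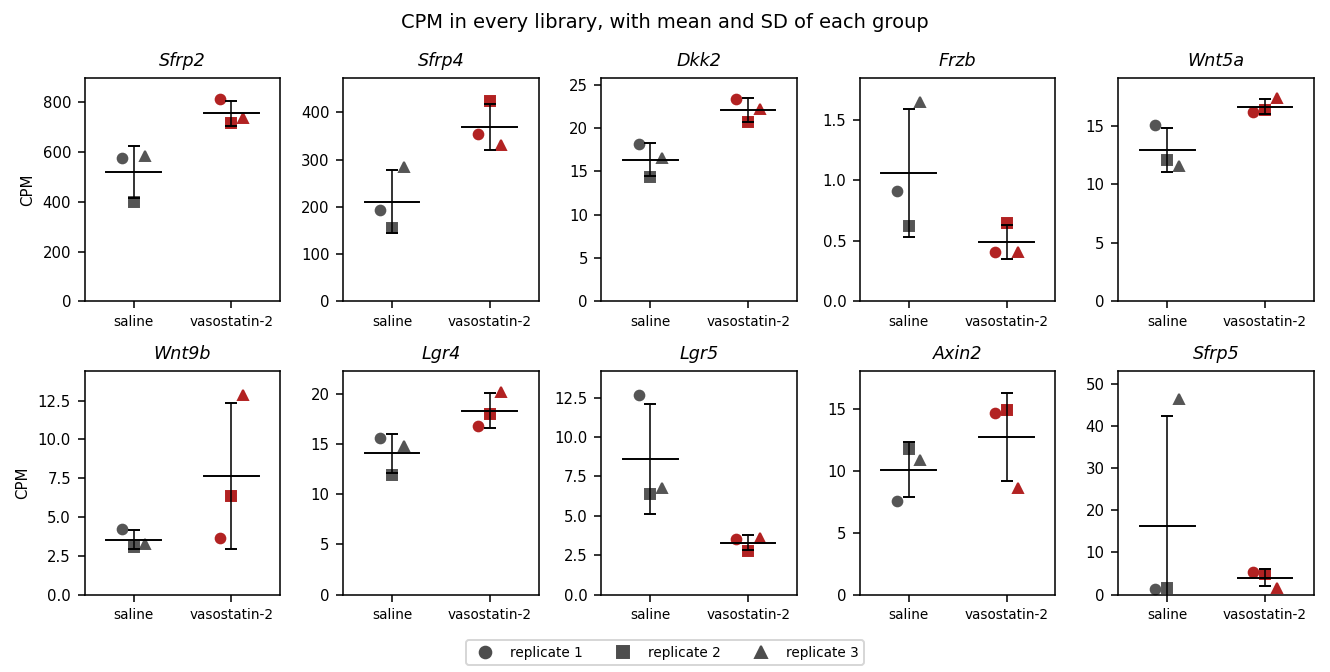
CPM (vertical axis, from 0) of 10 members in every library, with lines for the group mean and SD (n = 3 each). Sfrp2, Sfrp4, Dkk2, Wnt5a and Lgr4 separate upwards and Lgr5 downwards, whereas the groups overlap for Frzb, Wnt9b, Axin2 and Sfrp5.

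Sfrp5 had the widest range of all members. It was at 1.48, 1.55 and 51.9 TPM in saline and at 5.78, 5.34 and 1.78 TPM with vasostatin-2. Its high value fell in saline replicate 3, the library with the highest sum of Schwann cell markers. Its log2 fold change was −2.05 with all libraries and 1.49 without saline replicate 3. DESeq2 gave Sfrp5 no adjusted p.

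In CPM the same library was the highest for Wnt6, Wif1, Lgr6, Frzb and Wnt10a, and also for Fzd4, Fzd3, Wnt2, Wnt11, Wnt2b and Wnt1. Wnt6 was at 0.63, 0.49 and 2.65 TPM in saline and at 0.46, 0.95 and 0.90 TPM with vasostatin-2, where saline replicate 3 alone stood high. Wif1, a secreted Wnt inhibitor, had 46 counts there and 3 to 19 elsewhere. The part of Schwann cell RNA in these values was not tested. Over the 39 tested members, saline replicate 3 was the highest library for 9, or 23.1%, against 15.3% of all tested genes.

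Lgr5, a receptor for R-spondins and a marker of stem cells in several epithelia, was at 5.66, 2.64 and 3.00 TPM in saline. With vasostatin-2 it was at 1.52, 1.19 and 1.56 TPM. All treated libraries lay below all saline libraries, and saline replicate 1 was the highest by a wide margin. The log2 fold change was −1.38 (SE 0.30, edgeR adjusted p = 0.458), with a 95% interval from −2.09 to −0.66. Without saline replicate 1 it was −0.99. DESeq2's call was lost without vasostatin-2 replicate 2 (adjusted p = 0.278) or vasostatin-2 replicate 3 (adjusted p = 0.0677). In the authors' deposited table Lgr5 had a log2 fold change of −1.40 and a q-value of 0.0128, and it was the 1 member there with a q-value under 0.05. Lgr5 lies on chromosome 10 from 115450314 to 115587780.

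Its relative Lgr4, more broadly expressed in tissues, was at 6.50, 4.55 and 6.11 TPM in saline and at 6.74, 7.23 and 8.13 TPM with vasostatin-2. The difference ran the other way from that of Lgr5, again without overlap (log2 fold change 0.38, SE 0.13, edgeR adjusted p = 0.679). Lgr6 ran from 0.25 to 0.66 TPM over the 6 libraries.

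The R-spondins, the ligands of these receptors, varied widely within groups. Rspo3 was at 5.03, 1.39 and 1.81 TPM in saline and at 2.76, 2.24 and 3.59 TPM with vasostatin-2, so the saline values enclosed the treated ones. Its log2 fold change was 0.09 (SE 0.48) and turned to −0.21 without saline replicate 2. Rspo2 was at 2.02, 0.82 and 0.31 TPM in saline and at 0.59, 1.40 and 2.37 TPM with vasostatin-2, with overlapping groups and a log2 fold change of 0.49 (SE 0.73). Rspo1 ran from 1.00 to 3.19 TPM in saline and from 2.09 to 4.16 TPM with vasostatin-2, and Rspo4 had 3 counts in 1 library and 0 in the others.

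The RefSeq promoters of Lgr4 and Dkk2 are shown, as regulatory sequence of members that were higher with vasostatin-2. They are the 250 bases before the start, on the plus strand of GRCm38.p6, and RefSeq promoters were matched for 34 of the 51 members. Capitals mark CG dinucleotides and, in Dkk2, the letters TATAAA that begin 32 bases before the start.
Lgr4 promoter, chr2:109917397-109917646: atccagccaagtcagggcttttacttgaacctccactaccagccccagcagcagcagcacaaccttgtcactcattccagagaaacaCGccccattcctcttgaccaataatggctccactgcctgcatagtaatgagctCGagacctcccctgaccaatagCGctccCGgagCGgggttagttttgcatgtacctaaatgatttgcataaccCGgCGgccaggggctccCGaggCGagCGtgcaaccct
Dkk2 promoter, chr3:132085042-132085291: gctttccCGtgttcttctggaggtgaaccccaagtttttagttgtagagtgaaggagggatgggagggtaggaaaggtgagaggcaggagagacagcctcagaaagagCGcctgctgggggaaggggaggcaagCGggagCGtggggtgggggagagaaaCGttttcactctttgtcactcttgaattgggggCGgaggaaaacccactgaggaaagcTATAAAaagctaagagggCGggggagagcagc
The Lgr4 window held 10 CG dinucleotides and that of Dkk2 held 7, against a median of 6 over all 32851 promoters. Both lay below the median of 22 over the 38 promoters of members. TATAAA lay in the last 50 bases on the gene's strand in 2.63% of all promoters. The TCF/LEF core letters CTTTGAT or CTTTGAA, searched on both strands, were in neither window. They were in 3 of the 38 promoters of members, those of Dkk1, Wnt11 and Wnt5b, or 7.89%, and in 7.48% of all promoters. The last bases of the Dkk2 window lie inside the gene's span in the deposited table. Such matches are of letters only.

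Among the Wnt ligands, Wnt9a was the most abundant, at 28.3, 10.9 and 18.5 TPM in saline and 13.7, 20.4 and 17.5 TPM with vasostatin-2. Wnt2 followed at 10.6, 7.85 and 13.4 TPM in saline and 10.4, 13.0 and 13.3 TPM with vasostatin-2. Wnt11 was at 6.55, 3.24 and 7.46 TPM in saline and 4.67, 7.40 and 8.05 TPM with vasostatin-2. Groups overlapped in all 3, with log2 fold changes of −0.14 (SE 0.31), 0.22 (SE 0.19) and 0.12 (SE 0.31), and all 3 were lowest in saline replicate 2. Wnt2 was above Wnt11 and Wnt5a in every library, while the order of Wnt11 and Wnt5a changed between libraries.

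Wnt5a, a ligand known for beta-catenin-independent signalling, was at 6.32, 4.30 and 4.50 TPM in saline and at 6.17, 5.88 and 6.59 TPM with vasostatin-2. On that scale saline replicate 1 lay within the treated range. In CPM, which is scaled differently, saline stood at 15.1, 12.1 and 11.6 and vasostatin-2 at 16.2, 16.4 and 17.4, without overlap. The log2 fold change fitted to counts was 0.37 (SE 0.12, edgeR adjusted p = 0.640). Its exons share 358 bases with the opposite-strand gene Gm2670, whose reads may likewise be included. The same limit holds for Fzd5 (1233 bases), Rspo3 (404), Wnt11 (364), Wnt7b (324) and Fzd6 (152), which also overlap opposite-strand genes.

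Wnt9b was at 1.98, 1.33 and 1.53 TPM in saline and at 1.66, 2.87 and 5.80 TPM with vasostatin-2. Its highest value lay in vasostatin-2 replicate 3, the library rich in skeletal muscle markers. There Acta1, skeletal muscle actin, was at 420 TPM against 14.9 to 24.5 TPM elsewhere. The log2 fold change of 1.10 (SE 0.44, edgeR adjusted p = 0.685) was 0.50 without that library, and the part of muscle RNA in it was not tested. DESeq2 gave Wnt9b an adjusted p of 0.425 with all libraries, and of the 6 fits with 1 library left out it called Wnt9b in that without vasostatin-2 replicate 1 (adjusted p = 0.0289).

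The remaining ligands were rare. Wnt2b, Wnt10b, Wnt5b, Wnt16, Wnt4 and Wnt6 had group means between 0.77 and 2.47 TPM, with log2 fold changes from −0.88 for Wnt16 to 0.08 for Wnt10b, none at an unadjusted p of 0.05. Of the 7 ligands that failed the filter, Wnt1 reached 12 counts in 1 library, Wnt7b 10 and Wnt10a 8. Wnt3, Wnt7a, Wnt8a and Wnt8b had at most 2 counts in any library, under the floor of 3 counts, so their absence is not shown.

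Lrp5 and Lrp6 had the smallest spread within groups of the tested members, while Ror2 and Fzd10 lay above the members' median spread. Lrp5, a co-receptor for Wnt ligands, was at 44.9, 41.2 and 42.2 TPM in saline and at 44.7, 48.2 and 49.2 TPM with vasostatin-2. In CPM the groups did not overlap, at 104 to 110 in saline and 114 to 125 with vasostatin-2. The difference was small, a log2 fold change of 0.15 with an unadjusted edgeR p of 0.0520. Lrp6, its partner, was at 25.4 ± 0.780 and 25.5 ± 1.47 TPM, with a 95% interval for the log2 fold change from −0.14 to 0.18.

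Among the Frizzled receptors, which bind the ligands directly, Fzd4 and Fzd2 had the highest mean levels, although Fzd1 was above one or both in some libraries. Fzd4 was at 31.0, 26.5 and 36.1 TPM in saline and at 33.2, 31.9 and 26.9 TPM with vasostatin-2 (log2 fold change −0.01, 95% interval −0.29 to 0.27). Fzd2 was at 35.2, 20.1 and 29.5 TPM in saline and at 29.4, 32.4 and 36.8 TPM with vasostatin-2 (log2 fold change 0.24, SE 0.18). The groups overlapped in both. Fzd1 and Fzd6 had group means between 21.5 and 26.9 TPM, Fzd7, Fzd8 and Fzd5 between 4.65 and 9.59 TPM, and Fzd3, Fzd9 and Fzd10 below 1 TPM. Ror2 and Ror1, receptors of beta-catenin-independent signalling, were at 9.62 ± 3.55 and 5.86 ± 1.01 TPM in saline and at 7.59 ± 1.60 and 5.33 ± 0.816 TPM with vasostatin-2. None of the 13 Frizzled, LRP and ROR receptors tested reached an unadjusted p of 0.05. Their fitted log2 fold changes ran from −0.32 (Ror2) to 0.63 (Fzd10).

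Inside the cell, Ctnnb1, which encodes beta-catenin, was at 326, 269 and 303 TPM in saline and at 292, 276 and 293 TPM with vasostatin-2. The groups overlapped, and the log2 fold change was −0.05 with a 95% interval from −0.25 to 0.15. Exons of Ctnnb1 share 759 bases with Ulk4 on the opposite strand, and those of Axin2 share 209 with Gm11670, with the same limit as for Sfrp2. Transcript level does not measure the stability of the protein, through which the pathway acts. Axin2, a scaffold of the destruction complex and a widely used target of beta-catenin, was at 3.83, 5.52 and 5.56 TPM in saline and at 7.25, 7.31 and 4.25 TPM with vasostatin-2. Vasostatin-2 replicates 1 and 2 lay above all saline libraries, but replicate 3 lay among them. For Axin2 the log2 fold change was 0.33 (SE 0.26, edgeR adjusted p = 0.829). It was 0.17 with saline replicate 1 left out and 0.55 with the treated replicate 3 left out.

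Other genes of the pathway were read from a list chosen by role. Of 88 in the table, 83 were tested, none was called after adjustment, and 7 reached an unadjusted p of 0.05, or 8.43%, near the 7.14% of all genes. Of these 4 were higher. Tle1, Tle2 and Tle4, co-repressors that bind TCF and LEF factors, had log2 fold changes of 0.19, 0.31 and 0.23. Nfatc2, a calcium-regulated transcription factor, was at 14.0, 11.0 and 12.2 TPM in saline and at 14.7, 16.3 and 18.1 TPM with vasostatin-2 (log2 fold change 0.42). The other 3 were lower: the co-repressor Tle3 (log2 fold change −0.19), Myc, a growth-promoting transcription factor (−0.40), and Lef1, a partner of beta-catenin (−1.39). Lef1 was rare, at 1.00, 0.63 and 0.46 TPM in saline and at 0.18, 0.40 and 0.25 TPM with vasostatin-2.

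Among 16 tested genes listed as targets of beta-catenin, 6 had a fitted value above 0 and 10 below, with a median log2 fold change of −0.23. Both that reached an unadjusted p of 0.05, Lef1 and Myc, were lower with vasostatin-2, or 12.5% of the list against 7.14% of all genes. The groups did not overlap in 4, or 25.0% against 12.7%. All 4 were lower, where 6.72% of all genes were lower without overlap: Lef1, Myc, Znrf3 and Bambi, a decoy receptor of another pathway (log2 fold change −0.18). The list held no members, so Axin2 (log2 fold change 0.33) was not among the 16. Nkd1, a feedback inhibitor, was at 11.7 ± 2.65 TPM in saline and 13.0 ± 1.49 TPM with vasostatin-2. Apcdd1, a membrane inhibitor of the pathway, was at 26.3 ± 5.60 and 34.9 ± 9.96 TPM. Znrf3, which removes Frizzled receptors and is opposed by R-spondins, was at 2.47 ± 0.0577 and 1.98 ± 0.145 TPM. Their log2 fold changes were 0.17, 0.41 and −0.29, with unadjusted edgeR p-values of 0.287, 0.164 and 0.0545.

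The most abundant gene of each other list overlapped between groups. Cthrc1, a secreted protein of injured arteries, was at 405 ± 131 TPM in saline and 318 ± 27.0 TPM with vasostatin-2. Gsk3a, a kinase of the destruction complex, was at 129 ± 7.33 and 124 ± 4.48 TPM, and Bcl9l, a beta-catenin co-activator, ran from 40.2 to 55.8 TPM in saline and from 46.9 to 54.4 TPM with vasostatin-2. Ccn5, a matricellular protein, was at 167 ± 16.7 and 188 ± 49.9 TPM, and Rhoa, a small GTPase, at 583 ± 46.6 and 583 ± 31.9 TPM.

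Many members differed widely between libraries of a group. Saline replicate 2 was the lowest library for 16 of the 39 tested members (41.0%, against 23.3% of all tested genes) and the highest for 1. Median deviation from a member's own mean was −0.39 log2 CPM there and from −0.09 to 0.11 in the other 5 libraries. Saline replicate 1 was the highest library for 12 members, among them Lgr5, Rspo3, Wnt16, Wnt9a and Sfrp1. The median SD within groups was 0.40 log2 CPM for members and 0.15 for all tested genes, at median levels of 3.73 and 4.72 log2 CPM.

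**Figure D4:**
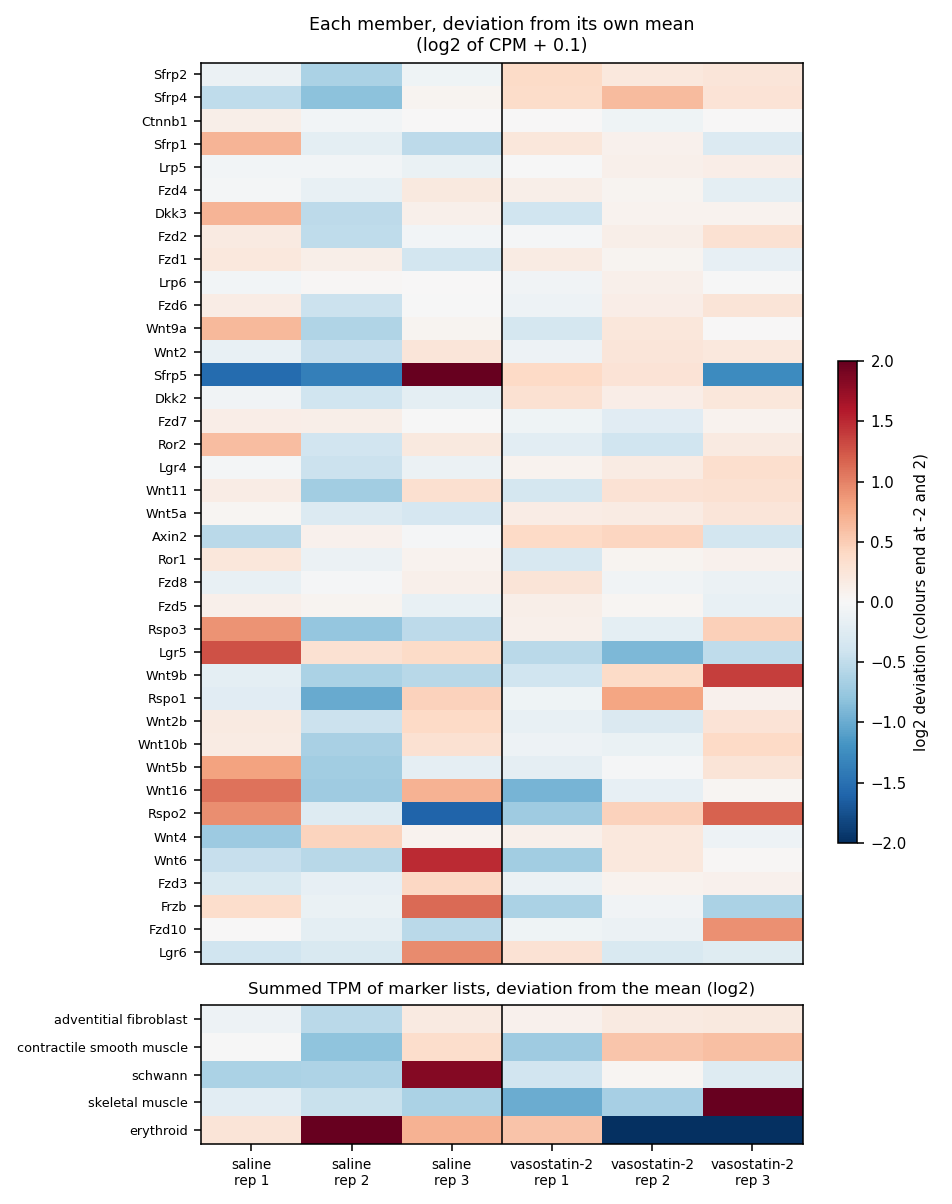
Deviation of each tested member from its own mean (log2 of CPM + 0.1) and, below, of the summed TPM of 5 marker lists, in the 6 libraries. Saline replicate 2 is pale to blue for most members, and the dark red fields of Sfrp5 and Wnt9b fall in the libraries where Schwann cell and skeletal muscle markers are highest.

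All 10 adventitial fibroblast markers were detected, and 9 of them were lowest in saline replicate 2. The fitted log2 fold change was above 0 for 9 of the 10, against 49.8% of all genes, with a median of 0.28. In CPM 3 of the 10 were higher without overlap, against 6.01% of all genes. Lum, a matrix proteoglycan, was at 301, 235 and 489 TPM in saline and at 543, 633 and 478 TPM with vasostatin-2 (log2 fold change 0.71), where saline replicate 3 reached into the treated range. In CPM Lum did not overlap between groups, nor did Dcn, another matrix proteoglycan, or Pdgfra, a growth factor receptor of fibroblasts, with log2 fold changes of 0.45 and 0.56. The other markers overlapped, at 0.42 (Clec3b), 0.32 (Pi16), 0.24 (Ly6a), 0.14 (Dpt), 0.11 (Col14a1), 0.07 (Cd34) and −0.24 (Mfap5). DESeq2 called Pdgfra (adjusted p = 0.0143), where it called 0.809% of all genes with a defined value. The sum of the 10 was 4184, 3077 and 5079 TPM in saline and 4773, 5078 and 5106 TPM with vasostatin-2. The 8 members with an unadjusted edgeR p under 0.05 were therefore also expressed per 1000 TPM of that sum. This description was chosen after the values were seen. These members were picked by their difference in the same libraries, so groups that stay apart after dividing are no separate evidence. The shares of all genes that separate on this scale or against single markers were not computed. On this scale Sfrp4 stood at 56.2, 56.9 and 67.9 in saline and at 87.5, 98.5 and 76.2 with vasostatin-2, without overlap. Lgr5 stood at 1.35, 0.858 and 0.591 in saline and at 0.318, 0.234 and 0.306 with vasostatin-2, also without overlap. Sfrp2 stood at 147, 127 and 122 in saline and at 175, 145 and 149 with vasostatin-2, and now overlapped. The groups overlapped on this scale for Dkk2, Lgr4, Wnt5a and Wnt9b too, and not for Frzb. Against each marker alone the picture was mixed for Sfrp4 and Sfrp2 and uniform for Lgr5 and Frzb. The Sfrp4 ratio was higher with vasostatin-2 without overlap for 5 of the 10 markers and overlapped for the other 5. To Lum it was 0.782, 0.745 and 0.705 in saline and 0.769, 0.790 and 0.814 with vasostatin-2. The Sfrp2 ratio was higher without overlap for 4 of the 10, and the ratios of Lgr5 and Frzb were lower without overlap for all 10. As 9 of the 10 markers had a fitted value above 0, dividing by them lowers such ratios. The counts for Lgr5 and Frzb are therefore no separate evidence, and Frzb overlapped in CPM. The part of fibroblast content in the members' values was not tested.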

How the data were processed

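Per the labels' protocols, RNA of whole injured arteries was enriched for poly(A) RNA and sequenced on a BGISEQ instrument. Per the submitters' processing notes, the authors used HISAT2 2.1.0 and DESeq2 1.26.0, with the build GRCm38.p6. Neither the counting tool nor the strandedness is stated. The authors deposited estimated counts (65.6% exactly whole), TPM and FPKM per library, and a comparison of their own with p-values, q-values and log2 ratios. FPKM values were not used.

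Estimated counts were rounded, filtered with filterByExpr (14557 genes) and scaled by TMM. edgeR 4.0.16 (R 4.3.3) ran a robust quasi-likelihood test with treatment as the only term and Benjamini-Hochberg adjustment over all genes. The code was tested on simulated data. log2 CPM used a prior count of 2. Alternatives were DESeq2 1.42.0, limma 3.58.1 (voom, or log2 TPM), other scalings and filters, a replicate block and left-out libraries. DESeq2 left 584 adjusted p-values undefined. Intervals assume that the 3 libraries are independent.

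The members and lists were chosen with earlier results of these data known. Values in every library are given for members with an unadjusted p under 0.05, for the 3 most abundant of each role (2 in the small roles) and for the 4 with the widest range. A planned comparison of SFRP proteins was not run. Libraries of a group differed far beyond counting noise, so none was a duplicate. Promoters are from RefSeq (GRCm38.p6) and exon overlaps from GENCODE.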

Additional observations from a re-analysis of the deposited data

How the results depend on the processing

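Replicate numbers did not pair the libraries: deviations from the group means correlated at −0.12, 0.03 and 0.03 for numbers 1, 2 and 3. With a replicate block edgeR called 0 genes and 0 members, gave 6 members and 6 other pathway genes at an unadjusted p of 0.05, and a member median of 0.04.

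edgeR's count of all genes called was 0 to 2 when each library was left out, with 2 without saline replicate 2, and its count of members called was 0 in each. DESeq2 called 113 genes and 2 members with all libraries. In DESeq2 fits added after seeing the data, leaving out saline replicate 1, 2 or 3 gave 123, 262 and 151 genes and 1, 3 and 2 members, and leaving out vasostatin-2 replicate 1, 2 or 3 gave 141, 25 and 66 genes and 2, 0 and 0 members. Members at an unadjusted p of 0.05 numbered 4 by limma on log2 TPM with either pseudocount, 5 without both libraries numbered 3, and 5 (without vasostatin-2 replicate 3) to 9 when each library was left out. Other pathway genes at that p numbered 4 by DESeq2, and 3 (without vasostatin-2 replicate 2 or 3) to 11 (without saline replicate 3) when each library was left out. The member median ran from −0.08 to 0.15.

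Sfrp2, Sfrp4, Dkk2, Lgr4, Wnt5a, Wnt9b, Lgr5 and Frzb kept their direction in every alternative that gave a value. Some log2 fold changes near 0 or led by 1 library changed sign, and the cause was not tested. Sfrp1 gave 0.16 by limma-voom, 0.014 and 0.013 by limma on TPM with pseudocounts of 0.1 and 1, and 0.022 with the replicate block. Without both libraries numbered 3, Fzd4 gave 0.17, Rspo2 −0.48, Rspo3 −0.34, Sfrp5 1.86 and Wnt6 0.39. When each library was left out, edgeR values ran from −0.086 to 0.0031 for Ctnnb1, −0.083 to 0.090 for Fzd4, −0.039 to 1.38 for Rspo2, −0.21 to 0.83 for Rspo3, −0.28 to 0.38 for Sfrp1, −2.60 to 1.49 for Sfrp5, −0.13 to 0.33 for Wnt11, −1.01 to 0.47 for Wnt6 and −0.40 to 0.23 for Wnt9a. DESeq2 values also changed sign without saline replicate 1 (Ctnnb1 0.0032), saline replicate 3 (Fzd4 0.087 and Rspo3 −0.14), vasostatin-2 replicate 1 (Wnt9a 0.0017) and vasostatin-2 replicate 3 (Fzd4 0.074, Rspo2 −0.043, Rspo3 −0.11 and Sfrp1 0.072), and their other sign changes matched those of edgeR.

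Low counts limit Frzb, Lgr6, Wnt6 and Fzd10 most.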
